A study of Mus musculus with 15 samples.

Results

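The genes of GABA synthesis, transport and breakdown and of the GABA-B receptor, 7 in all, were followed in mouse cortex after magnetic brain stimulation: Gad1 and Gad2, which make the transmitter, Slc32a1, which loads it into vesicles, Slc6a11, which takes it up again, Abat, which breaks it down, and Gabbr1 and Gabbr2, which encode the GABA-B receptor. They were chosen by symbol, each matched 1 Ensembl identifier, and they make up 7 of the 56748 identifiers in the deposited count table. All 7 passed the filter on low counts that left 22998 genes for testing. The mice were wild-type C57BL/6J animals with no transgene named. They received intermittent theta-burst stimulation (iTBS, 5 animals), continuous theta-burst stimulation (cTBS, 5 animals) or sham stimulation (5 animals) in 1 session, and tissue was taken 3 hours later. Repetitive transcranial magnetic stimulation passes magnetic pulses through the skull, and theta-burst protocols group them into short bursts, given with pauses (iTBS) or without a break (cTBS). The titles call the tissue somatosensory cortex and the design text sensorimotor cortex, and bulk RNA was sequenced from it after removal of ribosomal RNA.

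GABA is the main inhibitory transmitter of the cortex. Glutamate decarboxylase makes it from glutamate in 2 forms, GAD67 (Gad1), which supplies most of the GABA in the cell body and terminals, and GAD65 (Gad2), which is concentrated at synaptic terminals. The vesicular transporter VGAT (Slc32a1) fills synaptic vesicles, the transporter GAT-3 (Slc6a11), found mainly on astrocytes, clears GABA from the extracellular space, and GABA transaminase (Abat) starts its breakdown in mitochondria of neurons and astrocytes. GABA-B receptors are G-protein coupled and work as pairs of both subunits: the Gabbr1 protein binds GABA, and the Gabbr2 protein carries the receptor to the surface and couples it to the G protein. Both cortical interneurons and the projection neurons of the neighbouring striatum are GABA neurons and use Gad1, Gad2 and Slc32a1, whereas GABA-B receptors are widespread in excitatory and inhibitory neurons.

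Library totals ran from 15385070 to 47807723 counts, so that the least abundant of the 7 genes, Slc32a1, still had 805 to 3494 counts per library. Totals differed by group, with 35545632 to 43770223 in cTBS and 15385070 to 37929975 in iTBS. In sham they were 18484169 to 30697296, apart from sham 4 at 47807723. Markers of cortical excitatory neurons were abundant in every library, with summed levels of 4680 to 6345 CPM (counts relative to library size) in iTBS, 4827 to 6223 CPM in cTBS and 4607 to 6736 CPM in sham. The libraries differed in what else they held. The summed CPM of 19 striatal projection neuron markers ran from 1052 to 2678 in iTBS, from 1038 to 2695 in cTBS and from 729 to 2217 in sham, with no marker at 0 in any library. The mean log2 CPM of these markers, called the striatal marker level here, was 4.99 ± 0.60 in iTBS, 5.50 ± 0.66 in cTBS and 4.64 ± 0.90 in sham (SD, n = 5 each). The mean log2 CPM of 11 noncoding RNAs retained in the nucleus, called the nuclear RNA level, was 7.96 ± 0.48 in iTBS, 7.10 ± 0.52 in cTBS and 7.90 ± 0.64 in sham. Sham 2 stood apart in thalamic neuron markers (mean log2 CPM of 4.97, against 3.13 to 3.49 in the other 14 libraries), and cTBS 4, sham 2 and sham 5 in the choroid plexus transcript Ttr (232 to 249 CPM, against 0.759 to 64.1 CPM in the others). Tissue with fewer cells of a type and tissue with less RNA per cell cannot be told apart in bulk RNA.

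The receptor genes were the most abundant members. Per kilobase of annotated exon, Gabbr1 averaged 109.6 ± 7.88 CPM (SD, 15 libraries), Gabbr2 76.1 ± 9.03, Gad1 45.1 ± 5.72, Gad2 36.1 ± 8.01, Abat 32.5 ± 4.16, Slc6a11 24.4 ± 4.51 and Slc32a1 21.1 ± 3.96. All 7 lay at or above the 90.3th percentile of the 22321 tested genes with a length. The order from Gabbr1 to Gabbr2, Gad1 and Gad2 was the same in 15 of 15 libraries at each step, as was the step from Abat to Slc6a11. Gad2 was above Abat in 13 of 15 libraries and Slc6a11 above Slc32a1 in 12 of 15, so these neighbours overlapped. Relative to their mean CPM, Gad2 varied most over the 15 libraries (coefficient of variation 22.2%) and Gabbr1 least (7.19%). Exon lengths came from an annotation of the earlier build GRCm38.

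**Figure D1:**
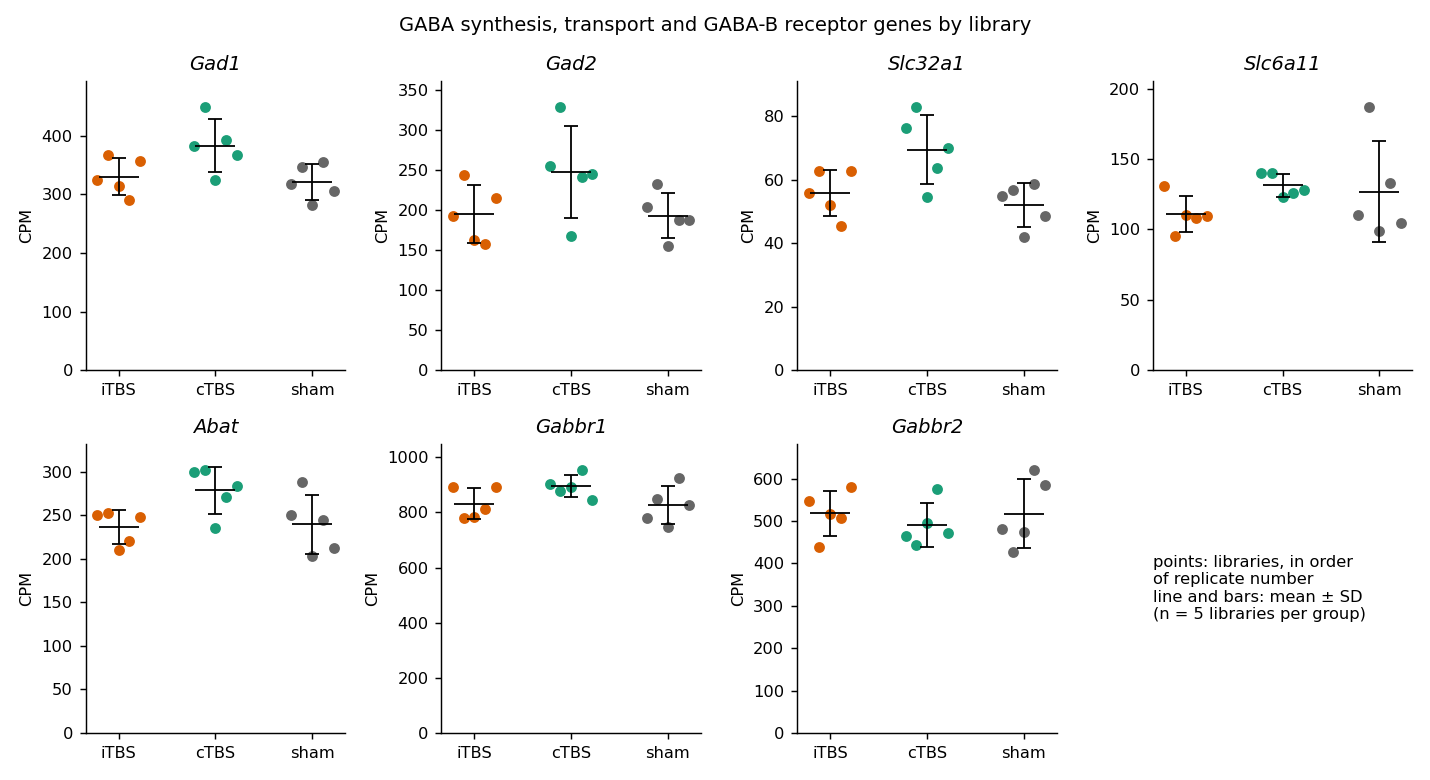
Levels of the 7 genes in CPM in iTBS, cTBS and sham, with a point for each of 5 libraries per group and the group mean ± SD. Gad1, Gad2 and Slc32a1 had 4 of 5 cTBS libraries above all 5 sham libraries, with cTBS 3 the exception, while iTBS and sham overlapped in every gene.

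Gad1 was at 324, 366, 314, 291 and 356 CPM in iTBS 1 to 5, at 383, 448, 324, 392 and 367 CPM in cTBS 1 to 5, and at 318, 347, 281, 356 and 305 CPM in sham 1 to 5. In cTBS, 4 of 5 libraries lay above the highest sham library, and cTBS 3 lay among the sham values. The means were 383 ± 44.96 CPM in cTBS and 321 ± 30.6 CPM in sham, a log2 fold change of 0.25 ± 0.09 (SE; edgeR quasi-likelihood test, adjusted p = 0.145). The iTBS mean was 330.3 ± 31.1 CPM, with a log2 fold change of 0.04 ± 0.09 against sham (edgeR adjusted p = 1.00) and of -0.21 ± 0.09 against cTBS (edgeR adjusted p = 0.131). A processed pseudogene copy, Gad1-ps, had 6 to 31 counts per library, at most 0.222% of the Gad1 count of its library.

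Gad2 had wider spread. Its values were 193, 244, 163, 158 and 215 CPM in iTBS 1 to 5, 256, 329, 168, 242 and 245 CPM in cTBS 1 to 5, and 204, 233, 155, 188 and 188 CPM in sham 1 to 5. The library cTBS 2 was the highest of all 15, and cTBS 3 lay below 4 of the 5 sham libraries. For cTBS against sham the log2 fold change of Gad2 was 0.36 ± 0.16 (edgeR adjusted p = 0.179), and 0.24 ± 0.15 without cTBS 2 (edgeR adjusted p = 0.332). For iTBS the log2 fold change was 0.010 ± 0.16 against sham (edgeR adjusted p = 1.00) and -0.35 ± 0.16 against cTBS (edgeR adjusted p = 0.144). Without cTBS 2 the value for iTBS against cTBS was -0.23 ± 0.15 (edgeR adjusted p = 0.320), and its unadjusted p was no longer under 0.05.

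Slc32a1, the vesicular transporter gene, had the largest log2 fold change of the 7 genes between cTBS and sham in the edgeR test without covariates on all 15 libraries. With the nuclear RNA level in the fit (0.36 for Gad2, 0.35 for Slc32a1) and without sham 2, sham 5 and cTBS 4 (0.511 and 0.508) Gad2 was slightly larger, and with the nuclear and striatal levels together Slc6a11 (-0.19) and Gabbr2 (-0.16) were larger in size than Slc32a1 (0.10). Slc32a1 was at 55.9, 62.7, 52.2, 45.6 and 62.6 CPM in iTBS 1 to 5, at 76.3, 82.8, 54.5, 63.8 and 70.0 CPM in cTBS 1 to 5, and at 54.8, 56.8, 41.9, 58.6 and 48.4 CPM in sham 1 to 5. Again 4 of 5 cTBS libraries were above every sham library, and cTBS 3 was the one within the sham range. Slc32a1 averaged 69.5 ± 10.96 CPM in cTBS and 52.1 ± 6.87 CPM in sham, 1.33-fold or 0.41 ± 0.12 on the log2 scale (edgeR adjusted p = 0.144). In iTBS it averaged 55.8 ± 7.28 CPM, with a log2 fold change of 0.10 ± 0.12 against sham (edgeR adjusted p = 1.00) and of -0.32 ± 0.12 against cTBS (edgeR adjusted p = 0.100). An annotated antisense gene overlaps 697 exon bases of Slc32a1 and held 12 counts over all 15 libraries, against 30135 for Slc32a1.

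The 3 genes of synthesis and vesicle filling moved together from library to library, and the 250 bases before their RefSeq starts are printed here so that the promoters of these co-varying genes can be compared. The sequences are those of RefSeq on build GRCm38.p6, whereas the counts were made on GRCm39, and all 3 lie on the plus strand of chromosome 2: Gad1 at chr2:70561879-70562128, Gad2 at chr2:22622077-22622326 and Slc32a1 at chr2:158610508-158610757. Capitals mark matches on either strand to 5 short motifs: the cyclic AMP response element TGACGTCA, its shorter form TGACG, which the full element contains, the homeodomain core TAATTA, the GC box GGGCGG and the E-box CACGTG.
Gad1: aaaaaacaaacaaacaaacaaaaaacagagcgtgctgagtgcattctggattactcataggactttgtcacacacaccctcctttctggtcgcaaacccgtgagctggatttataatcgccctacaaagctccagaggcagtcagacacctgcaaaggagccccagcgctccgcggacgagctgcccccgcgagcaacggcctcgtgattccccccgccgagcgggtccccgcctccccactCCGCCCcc
Gad2: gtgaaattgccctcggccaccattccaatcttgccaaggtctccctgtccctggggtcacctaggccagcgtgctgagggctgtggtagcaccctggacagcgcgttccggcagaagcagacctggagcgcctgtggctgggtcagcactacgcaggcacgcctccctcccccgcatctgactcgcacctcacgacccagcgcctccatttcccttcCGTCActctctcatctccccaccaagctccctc
Slc32a1: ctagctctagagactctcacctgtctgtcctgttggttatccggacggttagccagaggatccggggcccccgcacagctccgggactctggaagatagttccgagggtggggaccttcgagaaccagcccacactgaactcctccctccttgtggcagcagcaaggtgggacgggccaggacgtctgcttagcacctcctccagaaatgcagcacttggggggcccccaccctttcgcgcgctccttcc

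Gad1 held 1 GC box, 8 bases before the start, and Gad2 held 1 short form of the response element, 33 bases before the start. Slc32a1 held none of the 5 motifs in this window. Of 32851 upstream windows of the same length, 32.7% held a GC box, 17.8% the short form, 1.55% the full element, 4.84% the homeodomain core and 6.02% the E-box. The GC content was 58.0% for Gad1, 64.0% for Gad2 and 62.4% for Slc32a1, against a median of 52.4% over all windows. Among the other members, Slc6a11 held 3 GC boxes and Gabbr1 and Gabbr2 held 2 each, with none of the other motifs. Abat had no entry.

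Abat, the first enzyme of GABA breakdown, was at 251, 253, 210.3, 220.1 and 249 CPM in iTBS 1 to 5, at 300.0, 302, 236, 272 and 284 CPM in cTBS 1 to 5, and at 250.1, 289, 203, 244 and 213 CPM in sham 1 to 5. In cTBS, 2 of 5 libraries exceeded the highest sham library, sham 2, and 4 of 5 exceeded the sham median. The log2 fold change for cTBS against sham was 0.22 ± 0.10 (edgeR adjusted p = 0.184). For iTBS it was -0.02 ± 0.10 against sham (edgeR adjusted p = 1.00) and -0.24 ± 0.10 against cTBS (edgeR adjusted p = 0.117).

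Slc6a11, the astrocyte uptake transporter, was at 131, 95.05, 111, 108 and 109.9 CPM in iTBS 1 to 5, at 140.4, 140.0, 123, 126 and 128 CPM in cTBS 1 to 5, and at 110.3, 187, 99.1, 133 and 105 CPM in sham 1 to 5. Sham 2, the library with the highest thalamic marker level, was also the highest in Slc6a11, and without it the 5 cTBS values lay between 123 and 140.4 CPM and the 4 sham values between 99.1 and 133 CPM. For cTBS against sham the log2 fold change was 0.05 ± 0.14 with sham 2 (edgeR adjusted p = 0.835) and 0.24 ± 0.09 without it (edgeR adjusted p = 0.190). For iTBS against sham it was -0.19 ± 0.14, and -0.012 ± 0.09 without sham 2, both with an edgeR adjusted p = 1.00. Against cTBS, iTBS was at -0.25 ± 0.14 (edgeR adjusted p = 0.232). Over deviations from group means in 15 libraries, Slc6a11 had a Pearson r of 0.81 with the thalamic marker level and of 0.65 with the astrocyte marker level, given as a description. The thalamic value rested on sham 2: over the other 14 libraries r was 0.13 with the thalamic and 0.67 with the astrocyte marker level. Gabbr1 also had r = 0.65 with the astrocyte marker level over all 15 libraries.

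Gabbr1, which encodes the GABA-binding subunit, was at 893, 779, 782, 813 and 891 CPM in iTBS 1 to 5, at 905, 876, 894, 954 and 845 CPM in cTBS 1 to 5, and at 780.0, 850.1, 748, 926 and 828 CPM in sham 1 to 5. All 5 cTBS libraries lay above the sham median and 1 above the sham maximum. Its log2 fold change was 0.11 ± 0.07 for cTBS against sham (edgeR adjusted p = 0.314), 0.0092 ± 0.07 for iTBS against sham (edgeR adjusted p = 1.00) and -0.10 ± 0.07 for iTBS against cTBS (edgeR adjusted p = 0.317). Without sham 4 the value for cTBS against sham was 0.21 ± 0.08 (edgeR adjusted p = 0.0582), and limma-voom with quality weights gave 0.16 ± 0.06 (adjusted p = 0.0485). For iTBS against cTBS it was -0.18 without iTBS 1 and -0.17 without iTBS 5.

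Gabbr2, which encodes the coupling subunit, was at 547, 438, 517, 508 and 581 CPM in iTBS 1 to 5, at 465, 443, 496, 576 and 472 CPM in cTBS 1 to 5, and at 481, 426, 474, 620.2 and 584 CPM in sham 1 to 5. It was the only member with a negative log2 fold change for cTBS against sham, -0.08 ± 0.11 (edgeR adjusted p = 0.673), and the value was 0.05 without sham 4. For iTBS the log2 fold change was 0.0028 ± 0.11 against sham (edgeR adjusted p = 1.00) and 0.08 ± 0.11 against cTBS (edgeR adjusted p = 0.635). The 3 groups overlapped broadly.

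**Figure D2:**
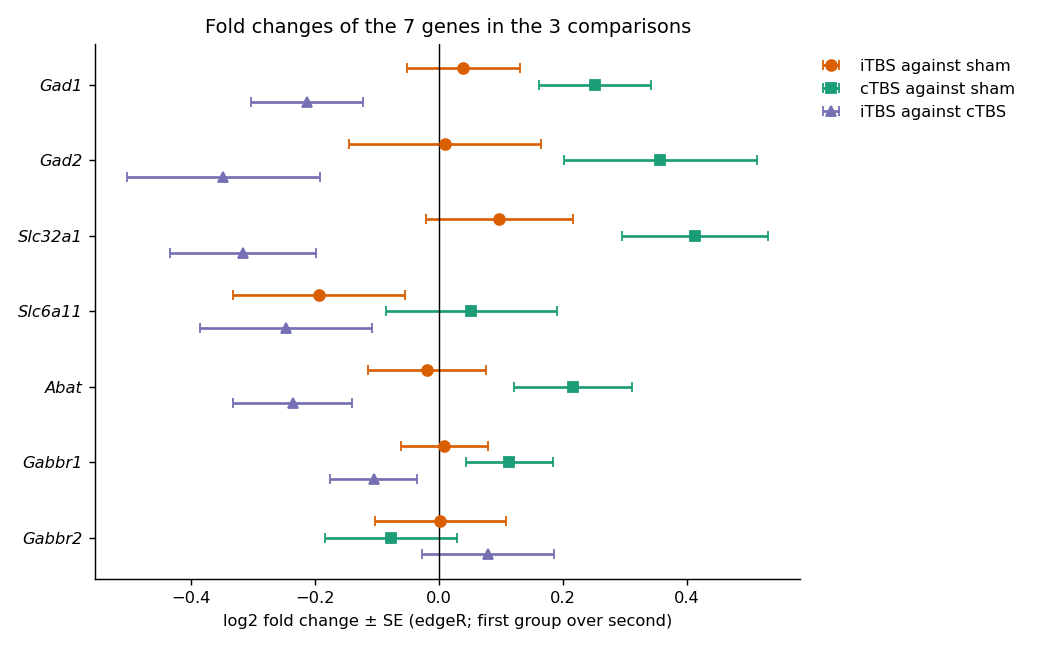
Log2 fold change ± SE from edgeR for the 7 genes (rows) in iTBS against sham, cTBS against sham and iTBS against cTBS. Against sham, cTBS values ran from -0.08 for Gabbr2 to 0.41 for Slc32a1 and iTBS values from -0.19 for Slc6a11 to 0.10 for Slc32a1.

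Counted over the members, cTBS against sham asked what the continuous protocol left in this pathway after 3 hours. Of 7 members, 0 passed with adjusted p under 0.05, as did 0% of all 22998 genes in each of the 3 comparisons. At unadjusted p under 0.05 (edgeR) there were 4 members with positive log2 fold changes, Gad1, Gad2, Slc32a1 and Abat, and 0 lower, against a background of 6.8% of all genes higher and 17.6% lower (24.4% in all). These 4 genes varied together between libraries (Pearson r of 0.78 to 0.92, given below), so they do not count as 4 independent results. The members' median log2 fold change was 0.22, and that of all tested genes was -0.02. DESeq2 called 1 member, Slc32a1 (0.46 ± 0.13, DESeq2 adjusted p = 0.0456), limma-voom with quality weights called 3, Gad1, Slc32a1 and Gabbr1, and edgeR without sham 4 called Gad1 and Slc32a1 (adjusted p = 0.0247 and 0.0181). DESeq2 called 1.04% of the 45298 genes it gave a p, limma-voom 23.7% of 22998 and edgeR without sham 4 24.4% of 23508.

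For iTBS against sham, 0 members reached an unadjusted p under 0.05 (edgeR), against a background of 1.93% of all genes in either direction (0.952% higher and 0.974% lower), and 0 members were called by DESeq2 or limma-voom, which called 0% of all genes. The median log2 fold change was 0.0092 over the members and -0.0010 over all tested genes. For iTBS against cTBS, the direct test of the difference between the protocols, 4 members had a negative log2 fold change with an unadjusted p under 0.05, again Gad1, Gad2, Slc32a1 and Abat, against a background of 10.6% of all genes lower and 20% higher (30.6% in all). Their median over all 7 was -0.24, beside 0.03 over all tested genes. Here edgeR and DESeq2 called 0 members, with 0% and 5.96% of all genes called, and limma-voom with quality weights called 3, Gad1, Slc32a1 and Abat, with 29.8% of all genes called. Groups without overlap were found for 0 of 7 members in each comparison, against a background, over all genes, of 0.243% higher and 0.209% lower (0.452% in all) in iTBS set beside sham, of 0.626% and 0.713% (1.34% in all) in cTBS set beside sham, and of 2.22% and 1.7% (3.92% in all) in iTBS set beside cTBS. The comparisons share libraries (sham in the first pair, cTBS in the last pair), so their values are not independent.

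Over the 15 libraries, after removal of group means, Gad1, Gad2, Slc32a1 and Abat varied together. Pearson r was 0.90 between Gad1 and Gad2, 0.92 between Gad1 and Slc32a1 and 0.90 between Gad2 and Slc32a1 (Spearman rho = 0.83, 0.90 and 0.80, permutation p = 0.00035, 5e-05 and 8e-05 for r, adjusted p = 0.00147, 0.000525 and 0.00056 over 21 pairs). Abat joined them with r of 0.78 with Gad1, 0.85 with Gad2 and 0.85 with Slc32a1 (permutation test, adjusted p = 0.00784, 0.00021 and 0.00147). Without the 2 libraries farthest from the median, these 6 values were between 0.75 and 0.90. Slc6a11 and Abat had r = 0.69 (permutation test, adjusted p = 0.0468, Spearman rho = 0.59), and 0.48 without sham 2. Gabbr1 and Gabbr2 had r = 0.66 with each other (permutation test, adjusted p = 0.0581, rho = 0.60), and Gabbr2 had r of -0.07, -0.32, -0.15 and -0.34 with Gad1, Gad2, Slc32a1 and Abat.

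**Figure D3:**
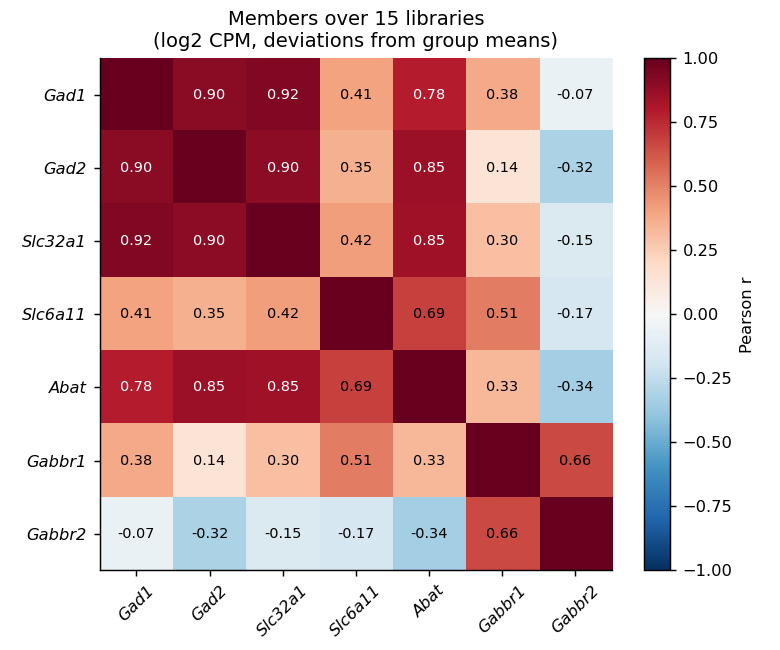
Pearson r between the 7 genes over 15 libraries (log2 CPM, deviations from group means). Gad1, Gad2, Slc32a1 and Abat form a block with r from 0.78 to 0.92, and Gabbr2 is near or below 0 with these 4 genes.

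The same 4 genes followed the striatal marker level, and the receptor genes the nuclear RNA level. Over deviations from group means, the striatal marker level had Pearson r of 0.85 with Gad2, 0.86 with Abat, 0.76 with Slc32a1 and 0.66 with Gad1 (Spearman rho = 0.92, 0.84, 0.66 and 0.70, permutation test, adjusted p = 0.00042, 0.00098, 0.0108 and 0.0479 over 21 relations), and 0.85, 0.88, 0.84 and 0.75 without the 2 libraries farthest from the median, sham 3 and sham 4. The nuclear RNA level had r = -0.92 with Gabbr1 and -0.76 with Gabbr2 (rho = -0.93 and -0.70, permutation test, adjusted p = 0.00042 and 0.0108), and -0.93 and -0.77 without cTBS 1 and cTBS 4. Gabbr1 also followed log2 total counts with r = 0.72 (rho = 0.57, permutation test, adjusted p = 0.0247). Levels in CPM of 1 library share its total. The library with the lowest striatal marker level of cTBS (4.38) was cTBS 3, the one whose Gad1, Gad2 and Slc32a1 lay in the sham range. Other libraries departed from this order. Sham 4 had a lower striatal marker level (4.08) and yet the highest Gad1 (356 CPM) and Slc32a1 (58.6 CPM) of sham. That library also had the largest total of all 15 and a nuclear RNA level of 6.84, against 7.83 to 8.48 in the other sham libraries. In iTBS 2, with a striatal marker level of 5.95, Slc32a1 was at 62.7 CPM, below every cTBS library but cTBS 3.

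**Figure D4:**
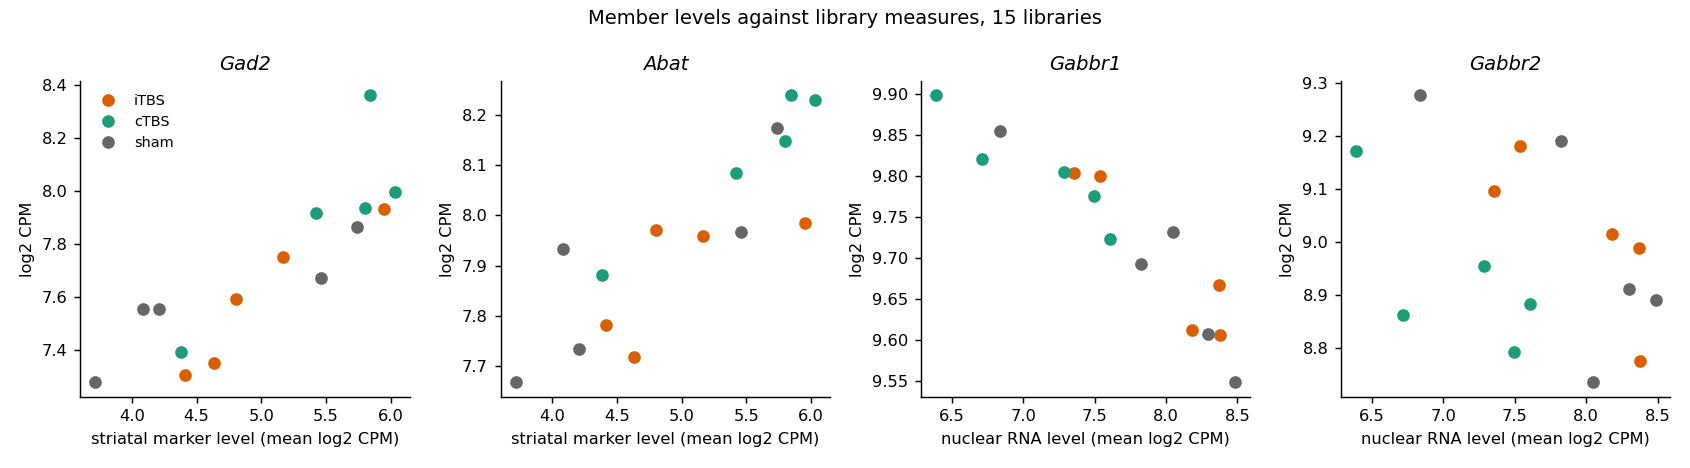
Log2 CPM of Gad2 and Abat against the striatal marker level, and of Gabbr1 and Gabbr2 against the nuclear RNA level, with a point per library coloured by group. Gad2 and Abat lie higher in libraries with more striatal marker RNA, and Gabbr1 lies lower in libraries with more nuclear RNA. The points include group differences. For Gabbr2 the negative relation (r = -0.76) is that over deviations from group means. Between groups, cTBS had both the lowest mean nuclear RNA level (7.10) and the lowest mean Gabbr2 (490 CPM, against 518 in iTBS and 517 in sham).

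The group means of these measures were not equal, and all 19 striatal markers had positive log2 fold changes for cTBS against sham (median 0.68, 7 with an unadjusted edgeR p under 0.05), while 10 of 11 nuclear RNAs had negative ones (median -0.99, 10 with such a p), against 6.8% of all genes higher and 17.6% lower with such a p. In other marker lists, log2 fold changes for cTBS against sham were positive for 10 of 10 oligodendrocyte markers (median 0.21, 3 with such a p), 8 of 8 microglia markers (median 0.17, 4 with such a p) and 11 of 12 astrocyte markers (median 0.13, 3 with such a p), and negative for 8 of 8 thalamic markers (median -0.39, 1 with such a p). The oligodendrocyte median lies near the members' median of 0.22, and the microglia and astrocyte medians lie below it. The part of these 3 glial lists in the members' values was not tested. The thalamic direction rested on sham 2, whose thalamic marker level was 4.97. In sham 1, 3, 4 and 5 this level was 3.13 to 3.18, below the 3.20 to 3.49 of the cTBS libraries. With the striatal marker level as a covariate, the log2 fold change for cTBS against sham was 0.13 ± 0.09 for Gad1 (edgeR adjusted p = 0.313), 0.07 ± 0.11 for Gad2 (adjusted p = 0.709), 0.22 ± 0.10 for Slc32a1 (adjusted p = 0.173) and 0.06 ± 0.07 for Abat (adjusted p = 0.591). Of these 4, Slc32a1 alone kept an unadjusted p under 0.05. Over all genes, 6065 of 22998 had such a p in this fit (1980 higher, 4085 lower). With the nuclear RNA level as the covariate, Gad1, Gad2, Slc32a1 and Abat were at 0.19, 0.36, 0.35 and 0.18, Gabbr1 at -0.01 and Gabbr2 at -0.27 ± 0.08 (edgeR adjusted p = 0.843). In this fit Slc32a1 and Gabbr2 had an unadjusted edgeR p under 0.05 (0.016 and 0.0057). There were 1333 of 22998 genes with such a p (575 higher, 758 lower). With both levels in the fit, Gad1, Gad2, Slc32a1 and Abat were at 0.04, -0.0029, 0.10 and -0.02, and none of the 7 members had an unadjusted edgeR p under 0.05. In that fit 1209 of 22998 genes had such a p, against 5623 without covariates. For iTBS against cTBS, the striatal level as a covariate gave -0.15 for Gad1, -0.18 for Gad2, -0.21 for Slc32a1 and -0.14 for Abat, and Gabbr2 with the nuclear RNA level was at 0.29 ± 0.09 (edgeR adjusted p = 0.531). With both levels, Gad1 was at -0.044, Gad2 at -0.11, Slc32a1 at -0.079 and Abat at -0.056, and Gabbr2 at 0.22 ± 0.08 (edgeR adjusted p = 0.758) was the 1 member with an unadjusted p under 0.05. Such a p was reached by 1460 of 22998 genes in that fit (885 higher, 575 lower), and by 7047 without covariates.

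Genes outside the set with the most similar library-to-library pattern were ranked among 11941 genes with a mean of at least 5 CPM, over deviations from group means in 15 libraries. Closest to the mean of Gad1, Gad2 and Slc32a1 were Pdyn, the prodynorphin gene on the striatal marker list (Pearson r = 0.975), Vat1l (0.95), Zswim5 (0.94), Dclk3 (0.94), Ankrd63 (0.92), Cpne5 (0.92), Kirrel3 (0.91) and Rgs2 (0.91), a regulator of G-protein signalling. Closest to Slc6a11 were Sparc (0.96), Zfp423 (0.94), Amotl1 (0.90) and Eef1g (0.895), which had r of 0.92, 0.84, 0.67 and 0.75 without sham 2, and closest to Abat were Col25a1 (0.955), Gm10778 (0.95), Gm4767 (0.93) and Fam102b (0.93). Gabbr1 was closest to Gnai2 (0.975), which encodes an inhibitory G-protein alpha subunit, then to Lgmn (0.97), Ids (0.96) and Lamp1 (0.96). Among the genes closest to Gabbr2 were Sept9 (0.97), Clec16a (0.97) and Lingo1 (0.97). As a description, Gabbr2 also had r = 0.87 with the level of cortical excitatory neuron markers, and Gad1 had r = 0.70 with that of cortical interneuron markers. The interneuron value was not particular to Gad1, with r of 0.71 for Gabbr1, 0.67 for Slc32a1, 0.61 for Gad2 and 0.50 for Abat. For Gad1 it was above the r of 0.66 with the striatal marker level. For Slc32a1, Gad2 and Abat the striatal r was the larger (0.76, 0.85 and 0.86). With the excitatory neuron markers, Gad1, Gad2, Slc32a1 and Abat had r of -0.27, -0.52, -0.32 and -0.54.

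Ratios of 2 genes within a library do not depend on library scaling, and 3 were compared, in 9 exact permutation tests. The log2 ratio of Gad1 to Gad2 counts was 0.78 ± 0.14 in iTBS, 0.65 ± 0.19 in cTBS and 0.74 ± 0.15 in sham (SD, n = 5 each), so group means of this ratio differed by less than the spread between libraries. The log2 ratio of Slc32a1 to Gad1 was -2.57 ± 0.06 in iTBS, -2.47 ± 0.12 in cTBS and -2.63 ± 0.08 in sham, a difference of 0.16 for cTBS against sham (two-sided exact permutation p = 0.0635, adjusted p = 0.286). The log2 ratio of Gabbr1 to Gabbr2 was 0.69 ± 0.09 in iTBS, 0.87 ± 0.10 in cTBS and 0.69 ± 0.19 in sham. For iTBS against cTBS this ratio differed by -0.19 (exact permutation p = 0.0159, adjusted p = 0.143), and for cTBS against sham by 0.18 (exact permutation p = 0.103, adjusted p = 0.304). Of the 9 ratio tests 0 passed after adjustment, and the smallest p that 5 against 5 libraries allow is 0.00794.

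**Figure D5:**
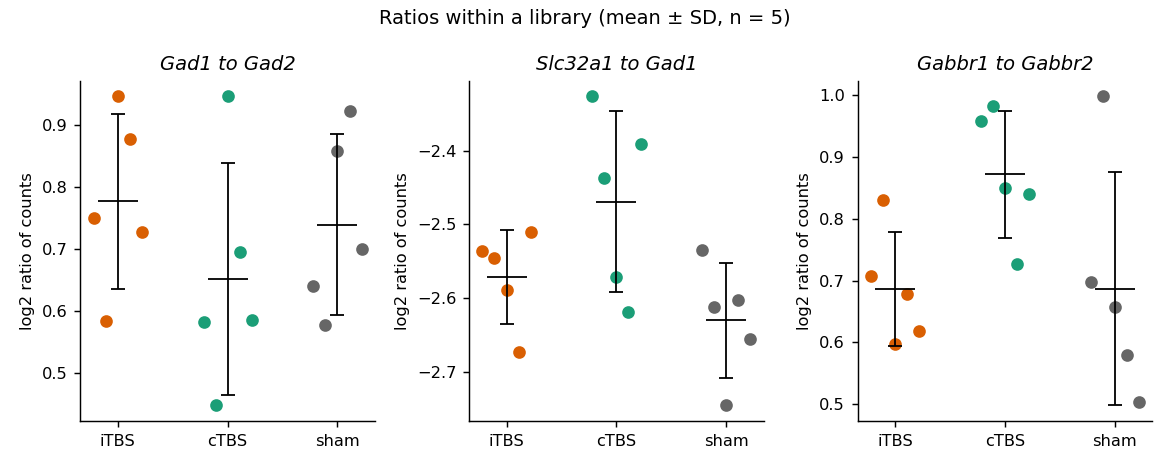
Log2 ratio of counts of Gad1 to Gad2, Slc32a1 to Gad1 and Gabbr1 to Gabbr2 in each library of iTBS, cTBS and sham, with group mean ± SD (n = 5). The Gabbr1 to Gabbr2 ratio averaged 0.69 in iTBS, 0.87 in cTBS and 0.69 in sham, with sham 2 at 0.998.

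The wider pathway was read from fixed lists. Of 17 other genes of GABA metabolism and transport, 3 had a positive and 1 a negative log2 fold change for cTBS against sham at unadjusted edgeR p under 0.05, with a median log2 fold change of 0.10. Over all genes 6.8% were higher and 17.6% lower by this measure. Among the positive ones, Glud1, glutamate dehydrogenase, was at 0.18 ± 0.08 and Slc6a13, another GABA transporter, at 0.25 ± 0.10 (edgeR adjusted p = 0.192 and 0.156). Of 19 partners and effectors of the GABA-B receptor, 4 were positive and 2 negative by the same measure, with a median of 0.09. Among them Kctd12, an auxiliary receptor subunit, was at 0.27 ± 0.09 and the G-protein subunit gene Gnb2 at 0.26 ± 0.07, while Kcnj6, a potassium channel subunit opened by the receptor, was at -0.22 ± 0.08. Of 14 tested GABA-A receptor subunits, 2 were positive and 0 negative (median 0.10), and of 29 cortical interneuron markers 2 were positive and 0 negative (median 0.03). The positive share of the interneuron list was near the 6.8% of all genes, and its negative share was below the 17.6%. For iTBS against sham these 4 lists had 1, 0, 0 and 0 positive and 0, 0, 1 and 3 negative members at unadjusted p under 0.05 by edgeR, against 0.952% of all genes higher and 0.974% lower. For iTBS against cTBS they had 1, 2, 0 and 1 positive and 2, 7, 2 and 5 negative members, against 20% of all genes higher and 10.6% lower. After adjustment 0 members of these lists passed in any of the 3 comparisons.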

How the data were processed

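The authors deposited raw counts per Ensembl gene for 15 libraries and a log2-scale table after variance stabilization. The submitters' processing notes name STAR, fastp, DESeq2 and build GRCm39 (mm39), without roles. Per the labels' protocols the library kit keeps strand, but no counting tool, annotation or strand setting is given in these sources. Reads of overlapping or antisense genes may be mixed. Symbols were matched by identifier (52073 of 56748, holding 97.7% of counts). Counts were tested with edgeR 4.0.16 in R 4.3.3 (quasi-likelihood F test, TMM scaling, default filter, a term per group, Benjamini-Hochberg adjustment over 22998 genes), with DESeq2 1.42.0 and limma 3.58.1 as alternatives and a threshold of 0.05. The SE is the absolute log2 fold change over the square root of F. Log2 CPM used a prior count of 2. The test was checked on simulated negative binomial counts. These had no differences in composition between libraries, unlike the real data, so the check does not cover that setting. Correlations used 100000 permutations within groups. Total counts of 15385070 to 47807723 set the precision of the deposited counts.

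Members and gene lists were chosen with earlier results of these data known. Named genes are the 7 members, up to 3 genes with the smallest p per list described, and the genes most alike in pattern. Some genes that this rule names are not reported here.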

Additional observations from a re-analysis of the deposited data

How the results depend on the processing

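Counts of called genes depended on the setting. For cTBS against sham they were 0 in the main edgeR test, 471 with DESeq2, 5461 with limma-voom and 0 to 5726 when a library was left out (5726 without sham 4, 1 without iTBS 1). Members called were 0, and 1 (Slc32a1), 3 and 0 to 2 in the same order. For iTBS against cTBS, genes called were 0, 2699 with DESeq2, 6853 with limma-voom and 0 to 4474 when a library was left out (4474 without iTBS 1, 3380 without cTBS 5, 3637 without sham 4), and members called were 0, 0, 3 and 0. With the replicate number as a block, genes called were 0, 0 and 5 in the 3 comparisons and members called 0 in each. Between same-numbered libraries, deviations from group means over all genes had correlations of -0.56 to 0.72, so the numbers gave no uniform pairing. For cTBS against sham the block gave 0.25 ± 0.07 for Gad1, 0.34 ± 0.08 for Gad2, 0.41 ± 0.09 for Slc32a1 and 0.22 ± 0.06 for Abat. Each had an edgeR adjusted p of 0.171. Without the block the SEs were 0.09, 0.16, 0.12 and 0.10 in the same order. For iTBS against sham 0 genes were called in every setting tried. Of the 15 libraries, limma-voom gave the lowest weights to sham 4 (0.234) and iTBS 1 (0.514). Its calls and those without sham 4 or iTBS 1 are therefore not separate evidence. The cause of the differences in genes called was not tested. RLE scaling, no filter, the 2 groups alone, the covariate fits, the deposited values and the fit without sham 2, sham 5 and cTBS 4 (chosen after the data were seen, as were the correlations without sham 2) called 0 members.

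Some log2 fold changes changed sign, among them those of Gad2 and Abat for cTBS against sham (0.36 and 0.22 without covariates). For iTBS against sham, Gad1 was at -0.011 and Gad2 at -0.114 with the striatal covariate, and at -0.00522 and -0.111 with both covariates. Gad2 was at -0.038 with the library number and -0.0562 with limma-voom. Abat was at 0.0363 and Gabbr2 at -0.0105 without sham 2, sham 5 and cTBS 4. For cTBS against sham, Slc6a11 was at -0.0443, -0.056 and -0.186 with the nuclear, striatal and both covariates, Gabbr1 at -0.0107 and -0.0171 with the nuclear and both, Gabbr2 at 0.0444 with the striatal, and Gad2 and Abat at -0.0029 and -0.0201 with both. Gabbr1 for iTBS against cTBS was at 0.0314 and 0.0357 with the nuclear and both covariates. Leaving out a library gave, for iTBS against sham, -0.00443 to 0.0924 for Gad1, -0.084 to 0.0858 for Gad2, -0.0728 to 0.057 for Abat, -0.0243 to 0.0675 for Gabbr1 and -0.059 to 0.0915 for Gabbr2. For cTBS against sham it gave -0.022 to 0.236 for Slc6a11 and -0.136 to 0.0473 for Gabbr2, and for iTBS against cTBS -0.0051 to 0.133 for Gabbr2. For iTBS against sham the log2 ratio of Gad1 to Gad2 ranged from -0.0046 to 0.0858 and that of Gabbr1 to Gabbr2 from -0.0464 to 0.0771. Pearson r of Gabbr1 with the striatal level was 0.181 over total values, and r of Gabbr2 with Gad1 and Slc32a1 was 0.128 and 0.0253 with the deposited values.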
